A study of Bos taurus with 12 samples.

Results

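Fat cells store triacylglycerol in lipid droplets and release it as fatty acids and glycerol. Proteins on the droplet surface decide how large it grows and how far lipases reach it, and the lipases then remove the fatty acids in steps. Catecholamines start the release through beta-adrenergic receptors, which raise cyclic AMP and activate protein kinase A, while insulin acts against it through the phosphodiesterase that breaks cyclic AMP down. The genes described here hold positions along that route: the droplet proteins PLIN2, CIDEA and CIDEC, the lipases PNPLA2, LIPE and MGLL, the phosphodiesterase PDE3B, and the receptors ADRB1 and ADRB3.

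Members were all probe sets of the bovine Affymetrix array annotated with exactly 1 gene symbol that belonged to these 9 genes. This gave 10 of 24016 probe sets and covered 7 of the 9 genes, out of 9155 genes named on the array. LIPE had 4 probe sets and PLIN2, CIDEA, CIDEC, PNPLA2, ADRB1 and ADRB3 had 1 each, whereas no probe set was annotated to MGLL, which releases the last fatty acid, or to PDE3B, and these genes are not analysed here. Where a gene had several probe sets, the brightest one over the 12 samples stands for it and the others are given beside it.

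Transcript signals were compared in fat of steers of 2 cattle breeds, with 3 samples in each of 4 groups. The groups were intramuscular fat (IMF) of Japanese Black (JB), a beef breed known for marbled meat, IMF of Holstein (HS), a dairy breed, subcutaneous fat (SCF) of JB, and SCF of HS. All were labelled as coming from animals on an energy-rich diet. IMF samples carry the numbers 1 to 3 and SCF samples the numbers 4 to 6. The labels used here do not say that samples came from separate animals, so the tests measure the spread between samples, which may be partly technical.

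The deposited values were linear signals. The median signal lay between 77.6 and 88.3 on 11 arrays and at 58.8 on HS IMF 3, so differences were taken on log2(signal + 16) after quantile normalization, with limma across 16811 probe sets and Benjamini-Hochberg adjusted p. The 8 member probe sets that passed the filter on dim probe sets had a group mean of at least 5.75 log2 units in every group, above the dimmest probe set tested at 5.63. HS SCF 5 had a 3' over 5' ratio of the GAPDH control of 4.06, against 1.19 to 2.40 on the other arrays. For the cyclophilin control HS IMF 1 was highest at 3.35, against 1.88 to 2.85 on the other arrays. Adipocyte markers gave signal in both depots, and the IMF samples also carried strong muscle fibre signal, which is given below. FABP4, the fatty acid carrier of adipocytes, had signals between 11591 and 15285 in IMF, against 15399.9 to 17309 in SCF, and summed adipocyte signal was 14017 to 29642 in JB IMF, 17479 to 22845 in HS IMF, 26496 to 34809 in JB SCF and 28974 to 37284 in HS SCF.

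The droplet protein genes had lower average signal in IMF than in SCF in both breeds, by amounts that differed widely between samples. Of them only PLIN2, which coats droplets in many cell types, passed the test between depots. PLIN2 had signals of 1319, 1669.6 and 329.9 in JB IMF and 379, 769 and 219 in HS IMF, against 3561, 5467 and 2400.0 in JB SCF and 584, 1508 and 4243 in HS SCF. The JB depots did not overlap, while HS SCF 4 lay below HS IMF 2, so the depots as a whole overlapped, with 3 of 6 IMF samples below the lowest SCF sample. Over both breeds PLIN2 was 3.33-fold lower in IMF than in SCF, a log2 difference of -1.74 ± 0.49 (SE; 95% interval -2.80 to -0.68; limma, adjusted p = 0.0410). By breed the log2 difference was -1.92 ± 0.69 in JB (adjusted p = 0.220) and -1.56 ± 0.69 in HS (adjusted p = 0.217), neither past the threshold of 0.05.

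The PLIN2 call between depots rested on nearly every library. It was lost when any 1 of JB IMF 1 or 3, HS IMF 1 or 3, JB SCF 4, 5 or 6, or HS SCF 5 or 6 was left out, with adjusted p of 0.0612 to 0.103. It was kept without JB IMF 2, HS IMF 2 or HS SCF 4, at adjusted p of 0.0268, 0.0317 and 0.0155. The direction did not change in any of these 12 fits, with log2 differences of -2.06 to -1.38. The plot of PLIN2 and ADRB3 differences by setting shows both.

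CIDEA and CIDEC belong to a family that moves lipid from smaller into larger droplets. CIDEA had signals of 361, 1924 and 252 in JB IMF and 175, 296 and 401 in HS IMF, against 815, 3170.2 and 1987 in JB SCF and 194, 1364 and 5259 in HS SCF. Its samples spread widely, and HS SCF 4 lay within the IMF range while JB IMF 2 lay above 3 SCF samples. The log2 difference of CIDEA between IMF and SCF over both breeds was -1.57 ± 0.73 (95% interval -3.15 to 0.02; adjusted p = 0.190). Without HS SCF 4 it was -2.15 (adjusted p = 0.0434), and without HS SCF 6 it was -1.06 (adjusted p = 0.382).

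CIDEC, which in mice is needed for the single large droplet of white fat cells, varied less. Its signals were 6615, 11728 and 3002 in JB IMF and 6060.0, 6786 and 4216 in HS IMF, against 12229.5, 13275 and 11042 in JB SCF and 10523, 11269 and 15018 in HS SCF. Every IMF sample except JB IMF 2 lay below every SCF sample, and the 2 depots of HS did not overlap. CIDEC was 1.89-fold lower in IMF, a log2 difference of -0.91 ± 0.30 (95% interval -1.56 to -0.27), and missed the threshold at an adjusted p of 0.0694. Without JB IMF 2 the difference was -1.18 (adjusted p = 0.00787), with the values as deposited it was -1.05 (adjusted p = 0.0366), and with median centring it was -0.94 (adjusted p = 0.0480). Without JB IMF 3 it was -0.66 (adjusted p = 0.142). CIDEC between depots passed in 4 of 25 alternatives, with adjusted p of 0.00787 to 0.927. Among the 12 fits with a sample left out, it passed in 1.

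**Figure D1:**
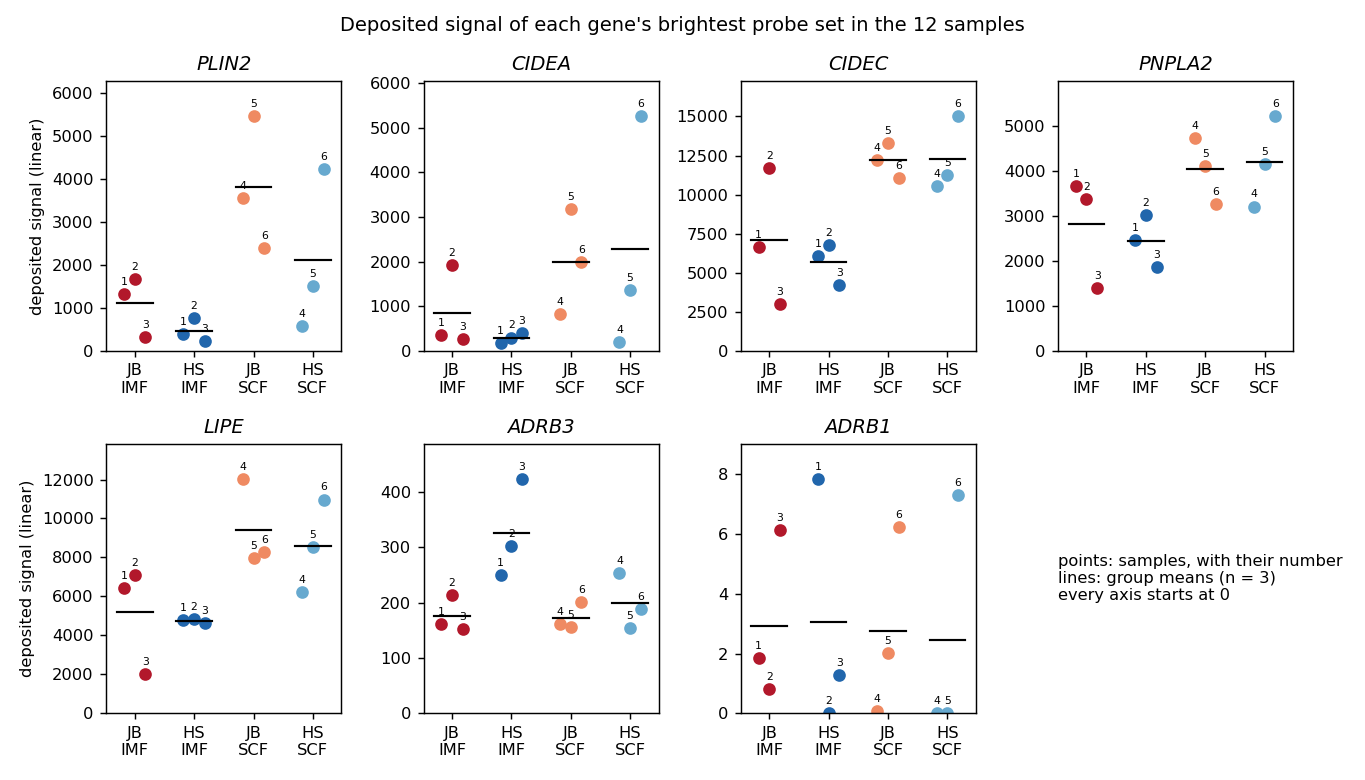
Deposited linear signal (y axis, starting at 0) of the brightest probe set of each of the 7 measured genes in the 4 groups (x axis). Points are samples with their number and lines are group means (n = 3). PLIN2 and CIDEA spread widely within groups, CIDEC, PNPLA2 and LIPE lie mostly lower in IMF than in SCF, ADRB3 has its highest group mean in HS IMF, and ADRB1 stays between 0 and 7.83.

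The lipase genes also had lower average signals in IMF than in SCF, and none of their probe sets passed the test. PNPLA2, which removes the first fatty acid from triacylglycerol, had signals of 3649, 3371 and 1401 in JB IMF and 2461, 3014 and 1866 in HS IMF, against 4727, 4099.9 and 3248 in JB SCF and 3202, 4154 and 5207 in HS SCF. The depots overlapped in JB and stood apart in HS, and 3 of 6 IMF samples lay below every SCF sample on the normalized scale. The log2 difference between IMF and SCF over both breeds was -0.53 ± 0.24 (95% interval -1.07 to -0.0039; adjusted p = 0.181).

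LIPE, the hormone-sensitive lipase that acts on diacylglycerol and is switched on by protein kinase A, had signals of 6453, 7116 and 2019.9 in JB IMF and 4779.8, 4833 and 4662 in HS IMF, against 12031, 7997 and 8276 in JB SCF and 6225, 8551 and 10974 in HS SCF on its brightest probe set. The HS IMF samples were nearly equal, whereas JB IMF 3 lay far below JB IMF 1 and 2. LIPE on this probe set was 1.76-fold lower in IMF, a log2 difference of -0.82 ± 0.30 (95% interval -1.46 to -0.17; adjusted p = 0.0999). Without JB IMF 2 it was -1.01 (adjusted p = 0.0373), the 1 of 25 alternatives in which this probe set passed. Without JB IMF 3 it was -0.51 (adjusted p = 0.155).

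The other LIPE probe sets had the same direction between depots. The second brightest had signals of 78.2 to 725 in JB IMF and 174 to 445 in HS IMF, against 691 to 1409 in JB SCF and 538 to 1217 in HS SCF, a log2 difference of -1.18 ± 0.48 (adjusted p = 0.138). The third had 13.6 to 63.3 in JB IMF and 29.1 to 46.4 in HS IMF, against 40.5 to 90.4 in JB SCF and 56.5 to 94.1 in HS SCF, a log2 difference of -0.62 ± 0.26 (adjusted p = 0.150). The fourth, with signals of 10.6 to 83.4 over the 12 samples, was among the dimmest 30% and was tested only with no filter, where its difference was -0.43 (adjusted p = 0.246). The 4 probe sets thus gave 1 direction for LIPE with differing sizes.

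The beta-adrenergic receptor ADRB3, through which catecholamines drive fat breakdown in rodent fat, ran the other way. ADRB3 had signals of 162, 214 and 153 in JB IMF and 249.6, 302 and 423 in HS IMF, against 161, 157 and 201 in JB SCF and 254, 155 and 189 in HS SCF. The HS IMF samples were the high ones, apart from HS SCF 4 at 254, and the other 3 groups overlapped one another. Between IMF and SCF over both breeds the log2 difference was 0.54 ± 0.26 (95% interval -0.04 to 1.11; adjusted p = 0.214), made up of 0.08 ± 0.37 in JB (adjusted p = 0.974) and 1.00 ± 0.37 in HS (adjusted p = 0.155).

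ADRB1 gave a signal of 1.86, 0.80 and 6.13 in JB IMF, 7.83, 0 and 1.29 in HS IMF, 0.08, 2.01 and 6.21 in JB SCF, and 0.01, 0.01 and 7.30 in HS SCF. All groups overlapped, and the probe set was among the dimmest 30%, so ADRB1 was tested only with no filter, where its log2 difference between IMF and SCF was 0.05 ± 0.17 (adjusted p = 0.900). A low signal of 1 probe set does not show that the receptor is absent.

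Between depots over both breeds, 1 of the 8 tested member probe sets passed, in the direction of lower signal in IMF, against 6.28% of all 16811 probe sets called lower. At an unadjusted p under 0.05, 6 of 8 were lower in IMF, against 16.8% of all probe sets. A negative difference was found for 7 of 8 member probe sets and for 55.2% of all. The median log2 difference was -0.87 over the 8 member probe sets and -0.06 over all probe sets tested. The 3 LIPE probe sets among the 8 share a gene and are not independent of one another.

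Within the breeds none of the 8 passed, against 3.07% of all probe sets in JB and 3.33% in HS. At an unadjusted p under 0.05, 4 of 8 were lower in IMF in JB (all probe sets, 6.89%), while in HS 1 was lower (12.7%) and 1, ADRB3, was higher (8.74%). In JB the depots stood apart with lower IMF for 1 of 8 probe sets, that of PLIN2, against 2698 of all 16811 probe sets apart with lower IMF and 30.3% apart in either direction. In HS they stood apart with lower IMF for 4 of 8, those of CIDEC, PNPLA2 and 2 of LIPE, against 12.6% of all apart with lower IMF.

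**Figure D2:**
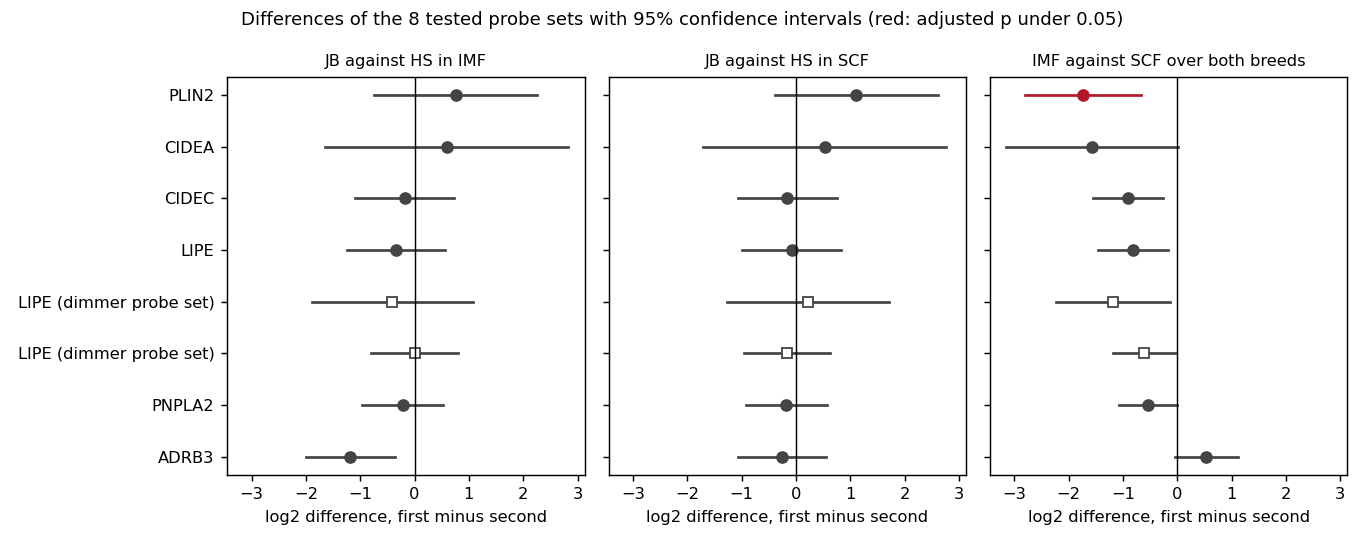
Log2 difference (x axis; JB minus HS in the first 2 panels, IMF minus SCF in the third) of the 8 tested member probe sets (y axis), with 95% confidence intervals. Circles are the brightest probe set of a gene, squares the dimmer LIPE probe sets, and red marks an adjusted p under 0.05. Only PLIN2 between depots is red, and ADRB3 is the 1 probe set to the right of 0 there and left of 0 in both breed panels with an interval clear of 0 in IMF.

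Between breeds in IMF none of the 8 member probe sets passed, against 0.0238% of all probe sets. The largest gap relative to its error was that of ADRB3, which averaged 176 ± 33 in JB IMF and 325 ± 89 in HS IMF (deposited signal, SD, n = 3 each) with no overlap. ADRB3 was 2.26-fold lower in JB, a log2 difference of -1.18 ± 0.37 (95% interval -1.99 to -0.37; unadjusted p = 0.00808; limma, adjusted p = 0.485). It was the 1 of 8 probe sets at an unadjusted p under 0.05 and lower, against 5.53% of all, and the 1 of 8 whose breeds stood apart and lower, against 6.54% of all.

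The size of the ADRB3 difference depended on HS IMF 3, the array with the lowest median signal. Without that sample the log2 difference was -0.75 ± 0.29 (adjusted p = 0.784), and on the values as deposited it was -0.81 ± 0.28 (adjusted p = 0.361). Over all 26 alternatives its adjusted p lay between 0.0891 and 0.9999, and JB stayed the lower breed in each. Erythroid markers rose with ADRB3 over the HS IMF samples but not over the JB IMF samples. ADRB3 was at 7.39, 7.82 and 7.30 log2 units in JB IMF and 8.01, 8.47 and 9.58 in HS IMF. Of 5 erythroid genes all were measured and 4 tested. None passed between breeds, and the 4 differences were negative with a median of -1.04. Their mean was 5.502, 5.73 and 6.79 log2 units in JB IMF and 6.31, 6.84 and 8.91 in HS IMF, and their summed signal was 120 to 1388 in JB IMF and 298 to 4965 in HS IMF, highest in HS IMF 3. HS IMF 3 correlated least with the rest of its group, at a mean of 0.862. The other HS IMF samples were also low, at 0.898 and 0.888, against 0.963 to 0.974 in JB IMF. The part of erythroid RNA in the ADRB3 difference was not tested.

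PLIN2 averaged higher in JB in both depots, within the spread of the samples. In IMF it averaged 1106 ± 695 in JB and 456 ± 283 in HS, a log2 difference of 0.75 ± 0.69 (95% interval -0.75 to 2.25; adjusted p = 0.681). In SCF it averaged 3809 ± 1549 in JB and 2112 ± 1903 in HS, a log2 difference of 1.11 ± 0.69 (95% interval -0.39 to 2.61; adjusted p = 0.9996). The intervals leave room for differences of over 2 log2 units towards JB, so these samples do not fix the breed difference of PLIN2.

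CIDEA was not separated by breed either, at 0.59 ± 1.03 in IMF and 0.53 ± 1.03 in SCF on the log2 scale. CIDEC, PNPLA2 and LIPE gave narrower estimates. The log2 difference of CIDEC between JB and HS was -0.18 ± 0.42 in IMF (95% interval -1.09 to 0.73) and -0.16 ± 0.42 in SCF (95% interval -1.07 to 0.76). That of PNPLA2 was -0.22 ± 0.34 in IMF (95% interval -0.97 to 0.53) and -0.17 ± 0.34 in SCF (95% interval -0.93 to 0.58). That of LIPE on its brightest probe set was -0.34 ± 0.42 in IMF (95% interval -1.25 to 0.57) and -0.08 ± 0.42 in SCF (95% interval -0.99 to 0.83). Each of these intervals holds 0. The other LIPE probe sets differed in sign and size. The second brightest was at -0.41 ± 0.68 in IMF and 0.23 ± 0.68 in SCF, and the third at 0.00080 ± 0.37 in IMF and -0.16 ± 0.37 in SCF. The dimmest of the LIPE probe sets, fitted with no filter, was at -0.65 ± 0.30 in IMF, where the breeds did not overlap (95% interval -1.29 to -0.0039; unadjusted p = 0.0484; adjusted p = 0.485), and at -0.53 ± 0.30 in SCF.

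Between breeds in SCF none of the 8 passed, against 0.00595% of all probe sets, and none had an unadjusted p under 0.05, against 3.56% of all. ADRB3 averaged 173 ± 24 in JB SCF and 199 ± 50 in HS SCF, a log2 difference of -0.26 ± 0.37. Whether the breed difference itself differed between depots was tested as an interaction. It passed for 0 of 8 member probe sets and 0 of all probe sets by limma, with 0 of 8 and 2.13% of all at an unadjusted p under 0.05. For ADRB3 the interaction was -0.92 ± 0.53 (95% interval -2.06 to 0.23) and for PLIN2 -0.36 ± 0.97 (95% interval -2.48 to 1.76).

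Ordered by normalized log2 means, PLIN2 and CIDEA ran from JB SCF over HS SCF and JB IMF to HS IMF, with overlap between all neighbours. CIDEC, LIPE and PNPLA2 ran from HS SCF over JB SCF and HS IMF to JB IMF. For CIDEC and LIPE the JB SCF and HS IMF samples did not overlap, and the other neighbours did. For PNPLA2 all neighbours overlapped. ADRB3 ran from HS IMF over HS SCF and JB IMF to JB SCF, again with overlap between all neighbours.

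The samples shared features that cut across the groups. JB IMF 3 was the lowest of the 12 samples in 6 of the 8 tested probe sets, and its mean over 5 adipocyte markers, 9.71 log2 units, was also the lowest. LIPE and PNPLA2 had the most alike profiles among the genes, with a root mean square difference of 0.23 log2 units after each was centred on its mean over the 12 samples. CIDEC lay 0.30 from LIPE and 0.34 from PNPLA2. PLIN2 and CIDEA lay 0.86 from each other, and CIDEA and ADRB3 were the farthest pair at 1.75. Genes that vary little are close to one another by this measure, and the points share arrays and normalization.

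**Figure D3:**
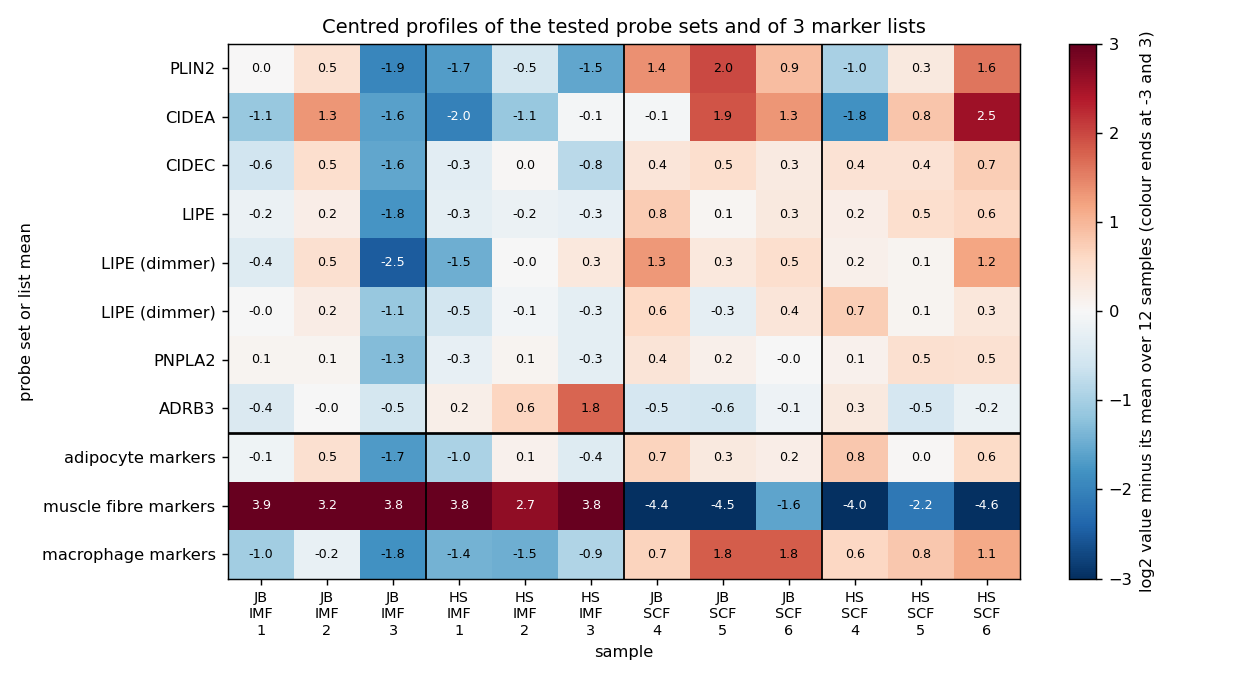
Normalized log2 value of the 8 tested probe sets and the mean of 3 marker lists (rows), minus its own mean over the 12 samples, in each sample (columns); colour ends at -3 and 3. JB IMF 3 is low in PLIN2, the CIDE and lipase genes and the adipocyte markers, ADRB3 is highest in HS IMF 3, and muscle fibre markers are high in all IMF samples.

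Among 7800 other named genes, the nearest profiles by the same measure over 12 samples were found as follows. Nearest to PLIN2 were DECR1 at 0.49, MMP19 at 0.53 and CYP2B6 at 0.54. Nearest to CIDEA were MMP19 at 0.71, CD68 at 0.71 and LIPA at 0.72. The own SD over the samples was 1.34 for PLIN2 and 1.56 for CIDEA, against 0.48 to 0.69 for the other 4 genes, and distances are larger for genes that vary more. Nearest to CIDEC were BSG at 0.13, ESYT1 at 0.20 and QPCTL at 0.21, and nearest to LIPE were ATF5 at 0.22, RGCC at 0.24 and LEP at 0.24. LEP encodes the adipocyte hormone leptin, and CD68, named above beside CIDEA, is on the macrophage marker list given below. Nearest to PNPLA2 were HERPUD2 at 0.17, RGCC at 0.19 and ZFYVE21 at 0.22, and nearest to ADRB3 were SERPIND1 at 0.15, CHPF2 at 0.18 and XYLB at 0.19.

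Marker lists of several cell types moved with the depot, and others did so little or not at all. Of 5 endothelial genes tested 0 passed, with a median log2 difference of -0.06, against -0.06 over all probe sets. Of 5 lymphocyte genes tested 1 passed as lower, with a median of -0.43. Of 4 erythroid genes tested 0 passed, with a median of 0.41. In bulk samples, fewer cells of a type and less RNA per cell cannot be told apart. Of 18 muscle fibre genes 15 were measured and all 15 rose in IMF, against 44.8% of all probe sets, with a median log2 difference of 7.13. Their summed signal was 110956 to 177291 in JB IMF and 68497 to 155785 in HS IMF, against 388 to 5110 in JB SCF and 390 to 17874 in HS SCF. JB SCF 6 and HS SCF 5 carried the most muscle signal among the SCF samples, and without these 2 together PLIN2 between depots was -1.88 ± 0.59 (adjusted p = 0.106).

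Of 9 macrophage genes 8 were measured and all 8 fell in IMF, against 55.2% of all probe sets, with a median of -2.32. Their summed signal was 1707 to 5203 in JB IMF and 1918 to 2324 in HS IMF, against 12363 to 27549 in JB SCF and 9146 to 14299 in HS SCF. Of 8 adipocyte genes 6 were measured and 5 tested. None passed, with adjusted p from 0.143 for LEP to 0.495 for FABP4, and all 5 differences were negative with a median of -1.03. Of 6 smooth muscle and pericyte genes 5 were measured. All 5 differences were positive, with a median of 2.93, and 4 passed, against 4.69% of all probe sets called higher. Their summed signal was 27138 to 53479 in JB IMF and 10243 to 26587 in HS IMF, against 3121 to 5767 in JB SCF and 2174 to 4457 in HS SCF. All 6 stromal progenitor genes were measured. All 6 differences were negative, with a median of -0.65, and 3 passed, against 6.28% of all probe sets called lower. Their summed signal was 15820 to 16709 in JB IMF and 12418 to 16992 in HS IMF, against 21156 to 27666 in JB SCF and 15403 to 26392 in HS SCF. No marker of the muscle fibre, macrophage, adipocyte, smooth muscle and stromal progenitor lists was at exactly 0 in all samples of a group, but some lay close to it. MYL2 of the muscle fibre list was at 0.02 in each HS SCF sample. The thermogenic marker UCP1, by which brown fat is known, had a signal between 0.22 and 11.4 in IMF, against 3.60 to 31.7 in SCF. UCP1 was too dim to be tested. Of 7 thermogenic genes 3 were measured and 2 tested, and these 2 had opposite signs between depots. PPARGC1A was at 0.64 ± 0.55 (limma, adjusted p = 0.495) and COX8B at -0.41 ± 0.17 (adjusted p = 0.139). The part of muscle fibres, macrophages, smooth muscle and stromal cells in the differences of the member genes was not tested.

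Set against the adipocyte markers, several depot differences shrank or turned. After the mean of the 5 tested adipocyte markers was subtracted from each array, which moved the median of all probe sets to 0.80, PLIN2 was at -0.88 ± 0.49 (adjusted p = 0.169) and CIDEC at -0.06 between IMF and SCF. The direction turned for LIPE, at 0.04 on its brightest probe set, and for PNPLA2, at 0.32. ADRB3 was at 1.39 ± 0.49 and passed (adjusted p = 0.0402), as did 2226 of all 16811 probe sets in either direction. Every tested member probe set had the same standard error in this fit, so it does not measure the spread of ADRB3 alone. Under this scaling 98.1% of calls over all probe sets were higher in IMF, against 42.8% under quantile normalization and 30.5% with the values as deposited. The subtraction also adds the spread of the marker mean to every probe set.

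**Figure D4:**
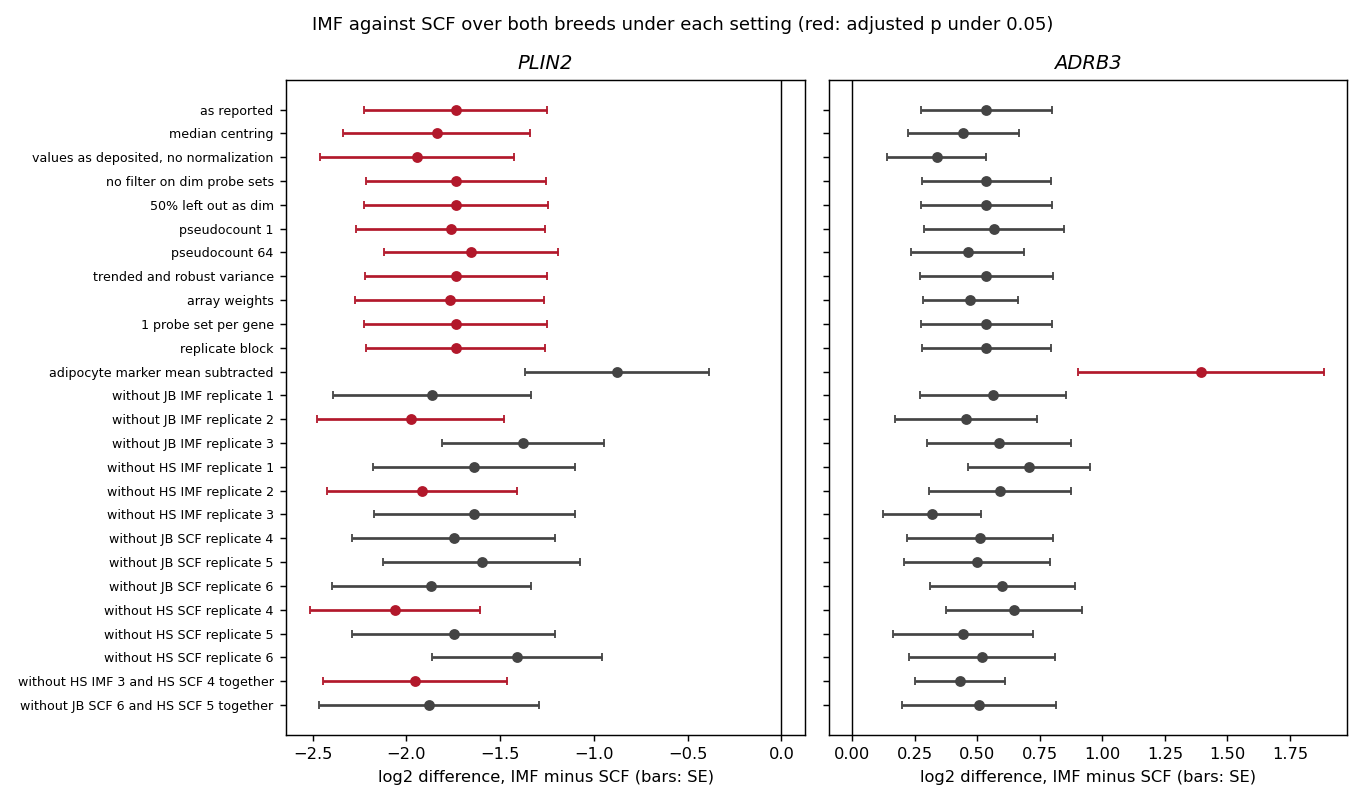
Log2 difference between IMF and SCF over both breeds (x axis) of PLIN2 (left) and ADRB3 (right) under each processing setting or left-out sample (y axis), with standard errors as bars and red for an adjusted p under 0.05. PLIN2 stays below 0 throughout at -2.06 to -0.88, and ADRB3 stays above 0 and passes in 1 setting, the subtraction of the adipocyte marker mean. In that setting every tested member probe set had the same standard error.

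The rest of the pathway was followed through 49 other genes of lipolysis and the droplet, of which 31 were measured and 30 tested. Between depots 2 passed as higher and 2 as lower in IMF, beside 4.69% of all probe sets called higher and 6.28% called lower. The median log2 difference was -0.32, against -0.06 over all probe sets, and 24 of 30 were negative; with the adipocyte marker mean subtracted, which adds 1 common amount to every difference, the median was 0.54 and 4 of 30 were negative, against a median of 0.80 over all probe sets. The shares of the list called, 2 of 30 in each direction, are near those over all probe sets. ADRA2A, an alpha-adrenergic receptor that lowers cyclic AMP and so opposes the beta receptors, had signals between 35.3 and 76.3 in IMF, against 8.73 to 29.1 in SCF with no overlap, a log2 difference of 1.18 ± 0.20 (limma, adjusted p = 0.00326). Its SCF group means, 5.37 log2 units in JB and 4.72 in HS, lay below the dimmest probe set tested, so it passed the filter only through IMF, where it is high, and its call under the filter is no support by itself. With no filter, over all 24016 probe sets, its adjusted p was 0.00325. PRKACA, a catalytic subunit of protein kinase A, had between 475 and 983 in IMF, against 394 to 625 in SCF. On the normalized scale its depots did not overlap, with a log2 difference of 0.61 ± 0.16 (adjusted p = 0.0332). PRKACA lost its call with the values as deposited (0.42, adjusted p = 0.203), with median centring (0.52, adjusted p = 0.0728), without JB SCF 6 and HS SCF 5 together (0.66, adjusted p = 0.103) and without any 1 of JB IMF 1 or 3, JB SCF 4, 5 or 6, or HS SCF 4 or 6, up to an adjusted p of 0.1000 for the single samples.

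The genes that passed as lower in IMF were FITM2 and AQP7. FITM2, an endoplasmic reticulum protein needed for droplet formation, had signals between 234 and 1002 in IMF, against 824 to 2224 in SCF, a log2 difference of -1.20 ± 0.34 (adjusted p = 0.0410). AQP7, the channel through which fat cells release glycerol, had between 691 and 3526 in IMF, against 2642 to 5240.0 in SCF, a log2 difference of -1.17 ± 0.33 (adjusted p = 0.0425). Their depots overlapped. The call of FITM2 held without JB IMF 2, HS IMF 2 or HS SCF 4 and was lost without any of the other 9 samples, and that of AQP7 held without JB IMF 2 alone, with adjusted p of up to 0.102 and 0.106 in these fits. Over all 25 alternatives FITM2 passed in 14, with differences of -1.42 to -0.35 and adjusted p of up to 0.562. AQP7 passed in 10, with differences of -1.51 to -0.32 and adjusted p of up to 0.596. G0S2, an inhibitor of the PNPLA2 enzyme, had signals between 948 and 5956 in IMF, against 3985 to 10576 in SCF and a log2 difference of -0.98 ± 0.41 (adjusted p = 0.152). ABHD5, the activator of the same enzyme, was at -0.48 ± 0.41 (adjusted p = 0.492).

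Within HS, 1 of the 30 passed between depots, against 3.33% of all probe sets. It was ADRA2A, at 1.76 ± 0.28 with no filter (adjusted p = 0.00555); with the filter it was tested only through its IMF signal. In JB 0 of the 30 passed between depots, against 3.07% of all. Between breeds 0 of the 30 passed in IMF, against 0.0238% of all, and 0 in SCF, against 0.00595%, and 0 passed for the interaction, against 0 of all. These shares are at or near those over all probe sets.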

How the data were processed

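Per the labels' protocols, total RNA of the fat samples was turned into biotin-labelled cRNA for the bovine Affymetrix array. GCOS 1.1.1 and Expression Console 1.1 are named in the submitters' processing notes. How the deposited values, a linear intensity per probe set, were summarized and normalized is not stated in any source used here, and the number of arrays limits their precision. The table held 24128 probe sets with 2303 zeros and a maximum of 222742, and 112 controls were left out. Gene names came from GEO's platform annotation, updated by Entrez identifier (13263 matched); 13292 probe sets had 1 symbol, 86 several and 10638 none.

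Deposited intensity was turned into log2(signal + 16) and quantile normalized, and the 30% of probe sets with the lowest mean were dropped, leaving 16811. Group means of the 4 groups were fitted over the 12 samples by limma 3.58.1 under R 4.3.3, with lmFit and eBayes (residual degrees of freedom 8, prior 4.04). The threshold was an adjusted p of 0.05 by Benjamini-Hochberg over all probe sets tested in a comparison. Errors are standard errors of the fit unless an SD is named. The procedure was tested on simulated data. Python 3.11.15 with matplotlib 3.10.9 drew the figures.

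Named were all member probe sets, at most 8 other pathway genes past the threshold per comparison, and the 3 genes with the smallest root mean square difference to each member. G0S2, ABHD5 and the marker genes given by name fall outside this rule and were chosen with their values known. The members and gene lists were chosen with earlier results of these data known. Alternatives were median centring, the deposited values without normalization, no filter, 50% left out as dim, pseudocounts of 1 and 64, array weights, a robust variance model with trend, fits of the compared groups alone, a single probe set per gene, a replicate block, subtraction of the adipocyte marker mean, each sample left out, and 2 pairs of samples left out.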

Additional observations from a re-analysis of the deposited data

Results flagged for a closer look

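JB IMF 3 lay apart from the other 5 IMF samples on the brightest LIPE probe set and on the PNPLA2 probe set. On the brightest LIPE probe set it had 10.89 log2 units, against 12.37 to 12.86 in the other IMF samples, and its gap to the nearest of them was 0.751 of the whole range. On the PNPLA2 probe set it had 10.33 log2 units, against 11.34 to 11.73, and the gap was 0.719 of the range. Its deposited signals were 2019.9 for LIPE and 1401 for PNPLA2. Both gaps exceed Dixon's 95% critical value for 6 samples, which chance passes in about 1 in 20 groups. Of 20 groups of 6 samples screened, these 2 passed, and they come from the same array. The other LIPE probe sets were screened too and were not flagged. On the dimmest of them JB IMF 2 was the lowest sample, at 4.70 log2 units, against 5.12 in JB IMF 3. Without JB IMF 3 the log2 difference of PLIN2 between IMF and SCF was -1.38 (adjusted p = 0.0943).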

How the results depend on the processing

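Between depots over both breeds, where 1 member probe set passed, the count was 2 with median centring and 2 with the values as deposited (PLIN2 and CIDEC in each), 3 with array weights (PLIN2, CIDEA and CIDEC), 2 without HS IMF 3 and HS SCF 4 (PLIN2 and CIDEA) and 0 without JB SCF 6 and HS SCF 5. With each sample left out in turn it ranged from 0 to 3, with 0 in 9 of 12 fits. In JB between depots the count of 0 became 3 with array weights and ranged from 0 to 1 with a sample left out, the 1 being CIDEC without JB IMF 2. Subtracting the adipocyte marker mean turned the depot difference of LIPE to 0.043 on its brightest probe set and 0.243 on a dimmer probe set, and that of PNPLA2 to 0.323, since by construction it adds 1 common amount to every difference between IMF and SCF. The counts between breeds in IMF, between breeds in SCF, between depots in HS and for the interaction were 0 under every alternative run. PLIN2 between depots passed in 14 of 25 alternatives, with adjusted p of 0.0155 to 0.169. Over all probe sets the depot comparison made 1844 calls, against 804 without JB SCF 6 and HS SCF 5 and 3145 with array weights. Same-numbered JB and HS samples of a depot did not vary together (correlations of -0.278 to 0.117, and 3 of 12 samples correlated best with their own number), so the numbers were not taken as pairs. IMF and SCF samples carry different numbers, so neither this check nor a block on the number can show whether the depots share animals. The labels do not say whether they do. With the number as a replicate block the depot count stayed at 1, with PLIN2 at -1.74 (adjusted p = 0.0355), and the breed and interaction counts stayed at 0. With 3 samples a group, the 95% intervals of 7 of the 8 member probe sets held 0 between breeds in IMF, and those of all 8 did in SCF and for the interaction; detection calls were not used here, so signal was not set against background.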
